A study of Saccharomyces cerevisiae with 22 samples.

Results

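Yeast stores glucose as glycogen, and 9 genes of Saccharomyces cerevisiae that make, regulate or degrade this polymer were followed here on 22 arrays: GLG1 (YKR058W), GLG2 (YJL137C), GSY1 (YFR015C), GSY2 (YLR258W), GLC3 (YEL011W), GAC1 (YOR178C), GPH1 (YPR160W), GDB1 (YPR184W) and PGM2 (YMR105C). They were chosen by name among the 6225 genes of the array, and all 9 passed the filter on dim probes that left 5912 genes. The 8 groups were an ancestor and 3 lineages evolved from it, B3, D11 and H9, each with 1 of 2 single-copy LEU2 plasmids: an empty vector, or one with the mutant Ser-tRNACAG of Candida albicans, which inserts serine at leucine CUG codons. All strains were self-diploids of the BY4742 background (MATα his3Δ1 leu2Δ0 lys2Δ0 ura3Δ0) grown in medium without leucine. The lineages had been propagated with the tRNA plasmid from a single clone, each is represented by 1 clone, and the tRNA plasmid was exchanged for the empty vector afterwards. There were 2 arrays each for the empty-vector ancestor and empty-vector B3 and 3 for every other group, from independent experiments according to the series design.

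Glycogen synthesis starts on glycogenin, a protein that glucosylates itself, and glycogen synthase then extends the chain while a branching enzyme adds side branches. Phosphorylase and a debranching enzyme release the glucose again. In yeast, both the synthetic and the degradative enzymes are transcribed at low levels during rapid growth on glucose and at higher levels as glucose runs out or under stress, so genes with opposing functions are often measured together.

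Values are log2 processed signals with the median of each array set to 0, and a level of one gene is compared only with other levels of the same gene. A gene was called when its Benjamini-Hochberg adjusted p in limma was under 0.05, over all 5912 genes, and its change was at least 2-fold. Between 85.8% and 95% of probes were well above background per array, and the median signal ran from 356.3 to 2278. The dimmest array, the third of D11 with the empty vector, also had the lowest correlation with a replicate (r = 0.924). The strain markers matched the labels in part: the alpha-factor gene MFALPHA1 and the plasmid marker LEU2 were well above background on 22 of 22 arrays and LYS2 on 0, whereas HIS3 and URA3, also deleted in this background, were above background on 5 and 4 arrays, and of the a-specific genes MFA1 and STE2 were above it on 22 arrays and MFA2 on 12. On those HIS3 arrays the duplicate spots differed by 2.73 to 3.45 on the log2 scale. On those URA3 arrays they differed by 2.58 to 4.54, except for the third D11 array with the tRNA (0.0803). Group means of MFA1, MFA2 and STE2 lay below the array median, at -2.9, -4.84 and -2.89 at most. Those of the alpha-specific MFALPHA1, MFALPHA2 and STE3 lay above it, at 4.96, 2.56 and 1.79 at least. GAC1 was the only dim member. It was not well above background on any of the 3 arrays of B3 with the tRNA, nor on 1 array each of the ancestor with the tRNA and of D11 with the empty vector.

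Expression of the 9 genes varied widely and largely in parallel. Their standard deviations over the 22 arrays ran from 0.441 for GLG2 to 1.1 for GAC1, compared with a median of 0.289 over all genes tested. Across the 22 arrays, the correlation of each gene with the mean of the other 8 ran from 0.754 for GLG2, 1 of the 2 glycogenins, to 0.959 for PGM2. These arrays fall into 8 groups and include 1 array that is high for all 9 genes, so the correlations are a description only. The highest group mean was that of the ancestor with the empty vector for 8 of the 9 genes and that of H9 with the empty vector for GLG2. The lowest was that of B3 with the empty vector for 4 genes, D11 with the empty vector for 2, B3 with the tRNA for 2 and H9 with the tRNA for 1. Of the 63 steps between neighbouring group means within a gene, 9 exceeded the larger SD of the pair of groups. Steps between neighbours in a sorted order are small by construction. The count therefore bears only on how far the order of neighbours can be read, not on whether groups differ.

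**Figure D1:**
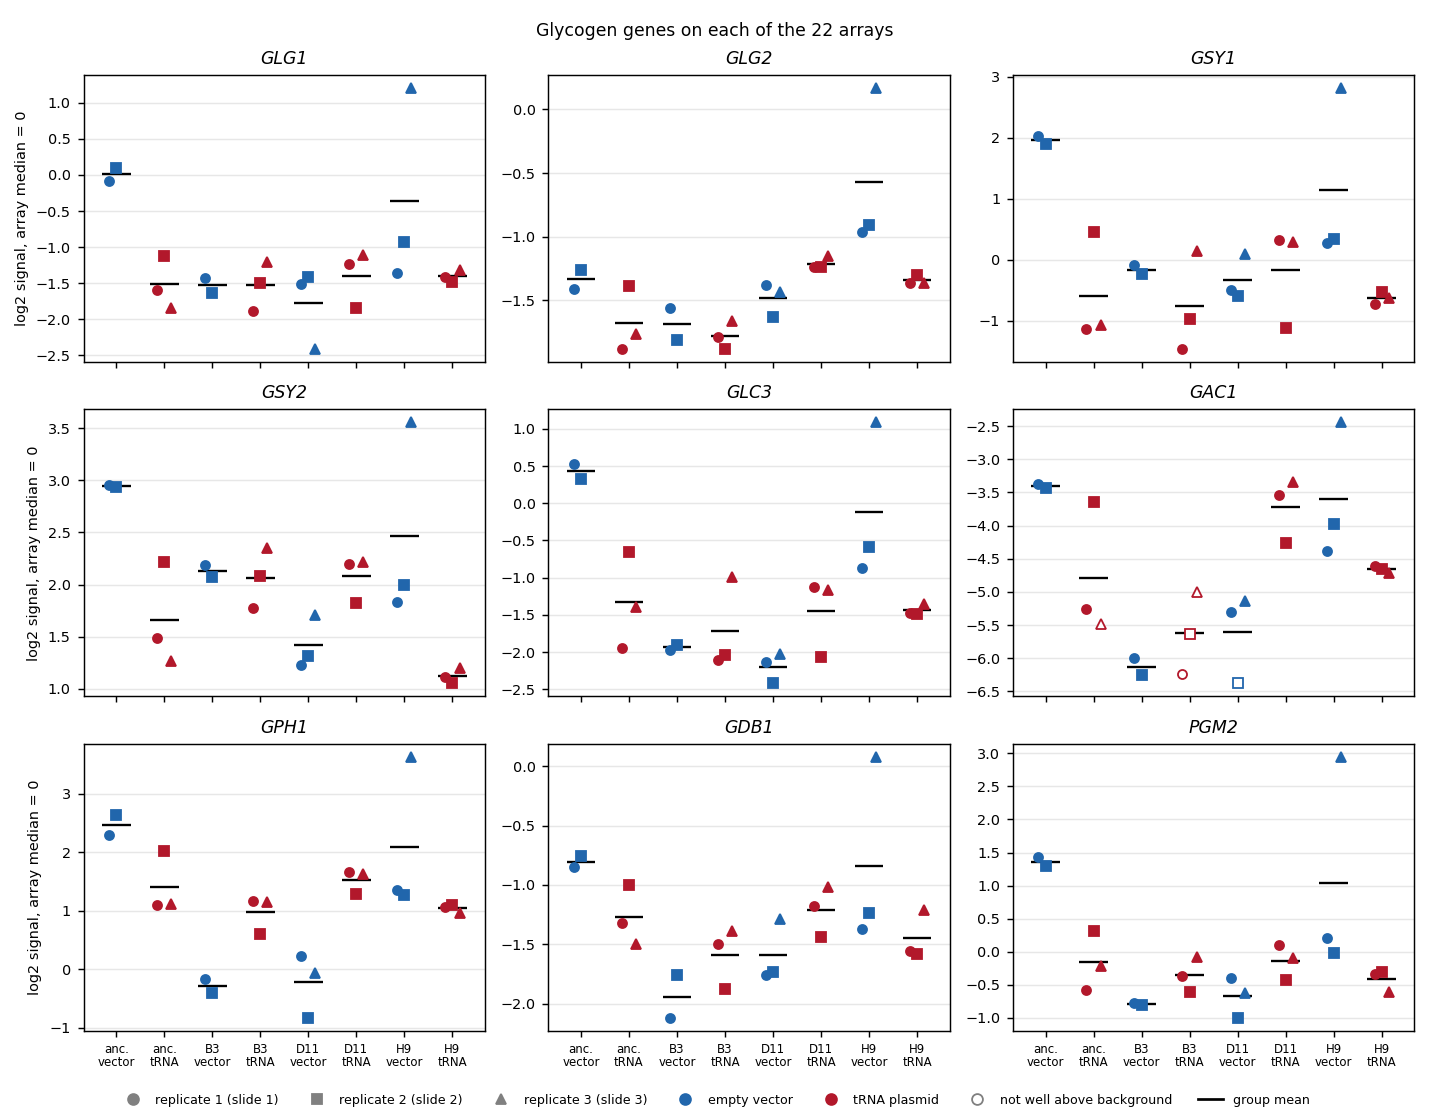
Median-centred log2 signal (y axis, array median = 0) of each of the 9 genes on each of the 22 arrays, by strain and plasmid (x axis; anc., ancestor), with the marker giving the replicate number and slide and the black bar the group mean. The third array of H9 with the empty vector is the highest of the 22 for all 9 genes, and open symbols mark the GAC1 values not well above background.

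The first comparison was made in the absence of the mistranslating tRNA: each lineage was set against the ancestor, with empty vectors in both. In B3, 5 of the 9 genes were called lower and none higher, compared with 1.96% of all genes called lower. The called genes were GPH1 (6.76-fold lower), GAC1 (6.6-fold), GLC3 (5.16-fold), PGM2 (4.42-fold) and GDB1 (2.2-fold), which together cover branching, regulation of glycogen synthase, breakdown and the supply of glucose-1-phosphate. In D11, 7 of the 9 were called lower and none higher, against 3.33% of all genes, namely GPH1 (6.47-fold), GLC3 (6.17-fold), GSY1 (4.89-fold), GAC1 (4.63-fold), PGM2 (4.07-fold), GLG1 (3.45-fold) and GSY2 (2.89-fold). In H9, limma called 0 of the 9, with 1 gene (GLG2, which was higher) at an unadjusted p under 0.05 and 0 by the methods' t-test, while 0.88% of all genes were called in either direction. The arrays average over all cells of a culture, so fewer expressing cells and less RNA per cell cannot be told apart. B3 had a median log2 difference of -2.12 over the 9 genes, D11 one of -2.03 and H9 one of -0.37, beside a median of -0.0131 over all genes in B3. Glycogen biosynthesis is a category that the study itself singled out on these samples, so the counts are not independent evidence of a direction.

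Of the 2 glycogenins, which prime new glycogen molecules, GLG1 measured -0.08 and 0.10 in the ancestor, -1.43 and -1.63 in B3, and -1.51, -1.41 and -2.41 in D11. All B3 and D11 arrays lay below both ancestor arrays, as they did for 41.2% of all genes in B3 and 27.7% in D11. The log2 difference was -1.54 ± 0.57 (SE) in B3, which was not called (adjusted p = 0.0841), and -1.79 ± 0.52 in D11 (adjusted p = 0.018). Under 2 of 14 alternatives the B3 value of GLG1 was called. The third D11 value rests on spots that differed by 2.73 on the log2 scale, and without that array the D11 difference was -1.47 and was no longer called. The other glycogenin, GLG2, had the smallest differences of the 9: -0.355 in B3 and -0.15 in D11, with adjusted p-values of 0.402 and 0.66.

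GSY1 and GSY2 encode the isoforms of glycogen synthase, of which Gsy2 is the major one. GSY1 measured 2.02 and 1.90 in the ancestor, -0.09 and -0.23 in B3, and -0.49, -0.60 and 0.09 in D11. Both lineages thus lay about 2 log2 units below the ancestor, with no overlap. Of all genes, 41.2% in B3 and 27.7% in D11 were also lower without overlap. The difference was called in D11 (-2.29 ± 0.68, adjusted p = 0.0186), whereas the similar value in B3 missed the threshold (-2.12 ± 0.74, adjusted p = 0.0663). These standard errors come from a spread shared by all 8 groups, not from the arrays compared alone. Under 2 of 14 alternatives the B3 value of GSY1 was called, so a difference between B3 and D11 should not be read from this. GSY2 measured 2.96 and 2.94 in the ancestor, 2.19 and 2.07 in B3, and 1.23, 1.31 and 1.71 in D11. It was lower in D11 (-1.53 ± 0.38, adjusted p = 0.00697), and its value in B3 was -0.82 ± 0.41 (adjusted p = 0.201). GSY2 lies on chromosome XII, whose 518 genes tested had a mean log2 difference of 0.428 in B3 and 0.378 in D11, so GSY2 was low where its chromosome was high. The part of chromosome dosage in its value was not tested.

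GLC3, the branching enzyme, measured 0.53 and 0.33 in the ancestor, -1.97 and -1.90 in B3, and -2.13, -2.42 and -2.03 in D11. These arrays formed a narrow band in each lineage, far below the ancestor. The differences were -2.37 ± 0.53 (adjusted p = 0.00828) and -2.63 ± 0.49 (adjusted p = 0.000923). GAC1, a regulatory subunit that directs protein phosphatase 1 to glycogen synthase and so favours its active form, measured -3.38 and -3.43 in the ancestor, -6.00 and -6.25 in B3, and -5.31, -6.38 and -5.14 in D11. Its log2 difference was -2.72 ± 0.62 for B3 (adjusted p = 0.00924) and -2.21 ± 0.57 for D11 (adjusted p = 0.0089). Spots of GAC1 on the third D11 array differed by 2.06 on the log2 scale, and the second D11 array was not above background. Both GAC1 calls were lost under normexp background correction, which adds an offset of 50 to every signal: the B3 difference was then -1.19 (adjusted p = 0.0688) and that of D11 was -0.434 (adjusted p = 0.372).

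The breakdown genes were low as well. GPH1, glycogen phosphorylase, measured 2.30 and 2.64 in the ancestor, -0.17 and -0.40 in B3, and 0.22, -0.83 and -0.06 in D11. It was lower in both lineages (-2.76 ± 0.57, adjusted p = 0.00529, and -2.69 ± 0.52, adjusted p = 0.00121), within the standard error of the values of GAC1 in B3 and GLC3 in D11. GDB1, the debranching enzyme, went from -0.85 and -0.76 in the ancestor to -2.12 and -1.76 in B3 (-1.14 ± 0.35, adjusted p = 0.0407), a call lost under 4 of 10 other settings (adjusted p 0.0593 to 0.0645). In D11 its difference of -0.79 ± 0.32 was not called (adjusted p = 0.0715). PGM2, the major phosphoglucomutase, which interconverts glucose-6-phosphate and glucose-1-phosphate, measured 1.43 and 1.29 in the ancestor, -0.77 and -0.80 in B3, and -0.39, -1.0 and -0.62 in D11. Log2 differences were -2.15 ± 0.63 (adjusted p = 0.0332) for B3 and -2.03 ± 0.58 (adjusted p = 0.0156) for D11.

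**Figure D2:**
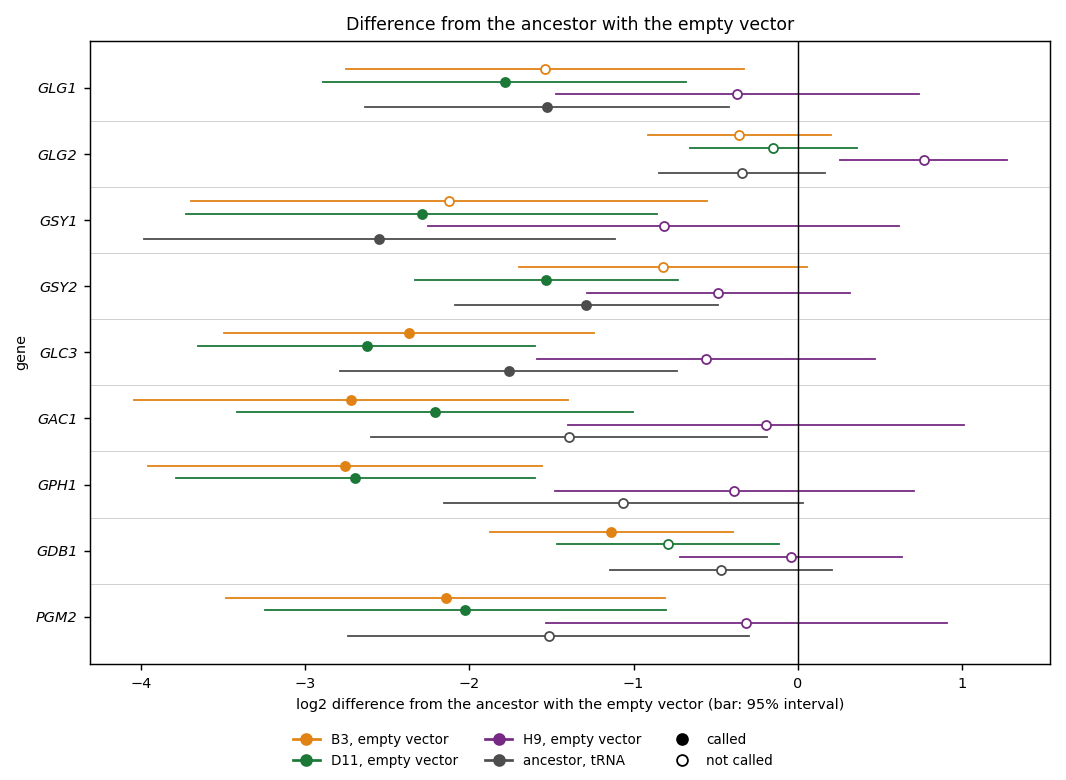
Log2 difference (x axis) of each gene (y axis) from the ancestor with the empty vector, for B3, D11 and H9 with the empty vector and for the ancestor with the tRNA; bars are 95% intervals from limma and filled points were called. GPH1 and GLC3 lie more than 2 log2 units below the ancestor in B3 and D11, whereas no H9 point was called.

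Each of these comparisons rests on the same 2 ancestor arrays. Leaving out a single array left 1 called gene in B3 without the first or the second ancestor array or the first B3 array, and 0 without the second B3 array, while the median stayed between -2.18 and -2.05. In D11, 2 genes (GLC3 and GPH1) were called without either the first or the second ancestor array. The arrays on slides 1 and 2 were compared with the ancestor array of their own slide as well: B3 had medians of -2.11 and -2.09 and D11 of -1.81 and -2.29. The third D11 array was on slide 3, without an empty-vector ancestor, and has no such comparison.

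H9 with the empty vector was split between its arrays. GPH1 measured 1.36, 1.26 and 3.63, PGM2 measured 0.21, -0.02 and 2.95, and GSY1 measured 0.27, 0.34 and 2.82. The first pair of arrays lay below the ancestor and the third above it, as for 8 of the 9 genes, the exception being GLG2 (-0.96, -0.91 and 0.17), which was above both ancestor values of -1.41 and -1.26 on all 3 H9 arrays. Of all genes, 11.5% were higher without overlap between these groups. The mean of the 9 genes was -0.59, -0.45 and 1.45 on the H9 arrays and 0.39 and 0.42 in the ancestor. Without the third H9 array, 4 genes were called lower: GSY2 (-1.03, adjusted p = 0.0186), PGM2 (-1.26, adjusted p = 0.00684), GLG1 (-1.15, adjusted p = 0.0335) and GPH1 (-1.16, adjusted p = 0.032). The median of the 9 genes was then -1.15, and within slides 1 and 2 it was -1.12 and -0.94.

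The third H9 array was hybridised on slide 3, which was scanned on another day than slides 1 and 2 and carried neither the empty-vector ancestor nor empty-vector B3. For 8 general stress reporters (HSP12, CTT1, DDR2, HSP26, ALD3, SOL4, TPS1 and TSL1), the mean was 1.66 on this array, compared with -0.12 and -0.48 on the other H9 arrays and 0.67 and 0.53 in the ancestor. The spots of GLG2 on this array differed by 2.29 on the log2 scale. The other 5 arrays of slide 3 had means of the 9 genes between -1.24 and -0.42.

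**Figure D3:**
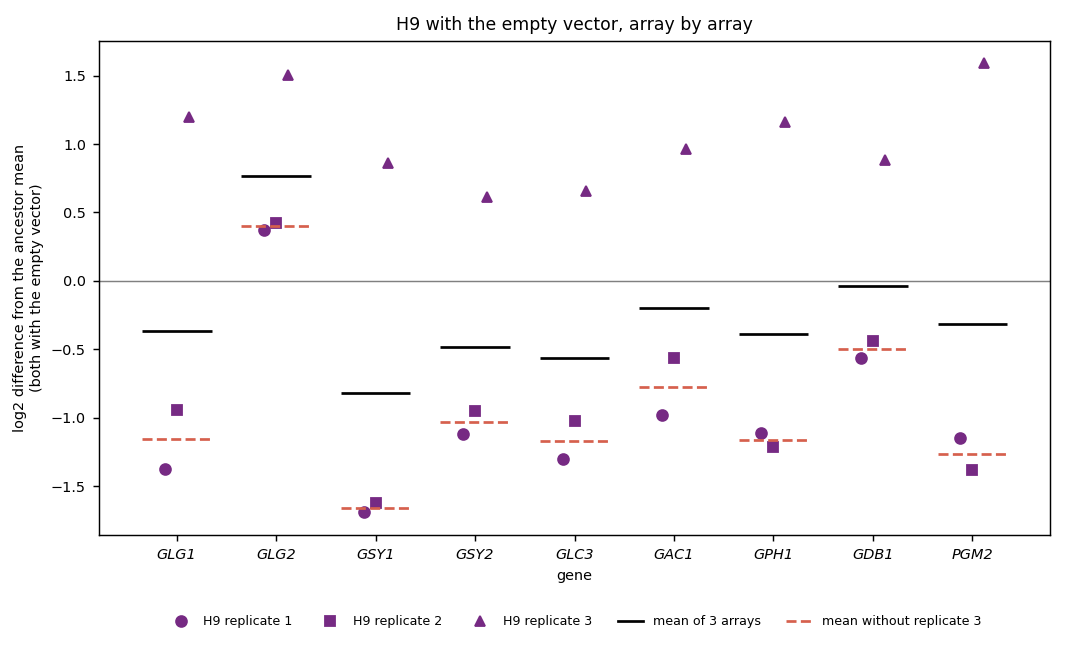
Log2 difference of each H9 array with the empty vector from the mean of the ancestor with the empty vector (y axis) for each gene (x axis), with the mean over 3 arrays (solid) and without the third (dashed). The third array lies above 0 for all 9 genes, and the first and second lie below 0 for all but GLG2.

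B3 and D11 were also compared with each other and with H9, all with the empty vector. Between B3 and D11, limma called 0 of the 9 genes, with 0 at an unadjusted p under 0.05 and 0 by the methods' t-test, where 2.15% of all genes were called in either direction, and the differences ran from -0.51 (95% interval -1.72 to 0.695) for GAC1 to 0.71 (-0.0902 to 1.51) for GSY2. Relative to H9, 6 genes were called lower in B3 (GAC1, GDB1, GLC3, GLG2, GPH1 and PGM2; 2.74% of all genes) and 6 in D11 (GAC1, GLC3, GLG1, GPH1, GSY2 and PGM2; 2.69% of all genes). GPH1 differed by -2.37 ± 0.52 in B3 (adjusted p = 0.00312) and by -2.31 ± 0.46 in D11 (adjusted p = 0.00173). Both sets share the H9 arrays. Without the third H9 array, 3 genes were called in B3 and 3 in D11, namely GAC1, GLC3 and GPH1 in each, and the medians moved from -1.3 to -0.755 and from -1.47 to -0.636. The count in B3 was 3 without the first B3 array and 2 without the second, and in D11 it was 9 without the first H9 array. With only the groups compared in the fit, 0 were called in B3 and 0 in D11, and under normexp GAC1 was not called in either (-0.935 and -0.184).

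The next comparison set the tRNA plasmid against the empty vector in the unevolved strain. In the ancestor, 4 of the 9 genes were called lower with the tRNA plasmid and none higher, against 1.89% of all genes called lower: GSY1 (5.85-fold), GLC3 (3.39-fold), GLG1 (2.88-fold) and GSY2 (2.44-fold). These encode priming, extending and branching enzymes. Neither breakdown gene was called: GPH1 differed by -1.06 ± 0.52 (adjusted p = 0.154) and GDB1 by -0.47 ± 0.32 (adjusted p = 0.32). PGM2 (-1.52), GAC1 (-1.39) and the other glycogenin GLG2 (-0.34) were not called either. All 9 differences were negative, and a difference between synthetic and breakdown genes was not tested. The median of the 9 genes was -1.39. Chromosome XII genes had a mean log2 difference of 0.365 between the same groups, close to the values of B3 and D11, although the strain was unevolved, and the part of this shift in the values of the 9 genes was not tested.

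GSY1 measured 2.02 and 1.90 with the empty vector and -1.14, 0.45 and -1.07 with the tRNA (-2.55 ± 0.68, adjusted p = 0.0148). GLC3 measured -1.94, -0.66 and -1.39 with the tRNA (-1.76 ± 0.49, adjusted p = 0.0178), and GSY2 measured 1.49, 2.22 and 1.27 (-1.29 ± 0.38, adjusted p = 0.0244). The tRNA arrays lay below both empty-vector arrays for these genes, with the second tRNA array nearest to them. Of all genes, 36.6% were lower without overlap between these groups. GLG1 measured -1.59, -1.12 and -1.84 (-1.53 ± 0.52, adjusted p = 0.0473), and its call was lost under 3 of 10 other settings (adjusted p 0.051 to 0.0752). The mean of the 9 genes was -1.24, -0.31 and -1.21 on the tRNA arrays, and that of the 8 stress reporters was -0.12, 0.50 and -0.01. These reporters did not move together: HSP26 measured 0.71 and 0.68 with the empty vector and 1.62, 1.62 and 1.32 with the tRNA (0.83 ± 0.27, adjusted p = 0.0415, under 2-fold), and HSP12 and DDR2 were also higher on all 3 tRNA arrays without being called, while SOL4 was called lower (-1.85 ± 0.57, adjusted p = 0.0298). No gene of the 9 remained called without either ancestor empty-vector array or without the first or the third tRNA array, and 5 were called without the second. On slides 1 and 2 the medians were -1.51 and -0.72.

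When the lineages and the ancestor all carried the tRNA, their values were close. In limma, 0 of the 9 genes were called in B3, D11 or H9 against the ancestor (0, 1 and 0 at an unadjusted p under 0.05, and 0 in each by the methods' t-test), where 0.66%, 1.61% and 2.11% of all genes were called in either direction, and the medians were -0.20, 0.12 and -0.10. GPH1, for example, differed by -0.44 (95% interval -1.41 to 0.543) in B3, 0.11 (-0.867 to 1.09) in D11 and -0.36 (-1.34 to 0.617) in H9, so that changes of over 2-fold lay within the intervals of B3, D11 and H9. The widest difference was that of GAC1 in D11 (1.08 ± 0.51, adjusted p = 0.231). In B3 with the tRNA, GAC1 was not well above background, and no direction can be given (adjusted p = 0.657 in limma). The ancestor measured -5.26, -3.65 and -5.48, with 2 of the 3 arrays above background. Its mean of -4.79 was 1.19-fold above the B3 bound of -5.04, and only its second array lay above that bound. On slide 2 the medians of B3, D11 and H9 were -0.94, -0.72 and -0.83, and on slide 3 they were 0.39, 0.60 and 0.29. The ancestor array on slide 2 was the high one of its group.

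The tRNA was then compared with the empty vector within each evolved lineage. In D11, 1 gene was called higher, against 1.1% of all genes: GPH1 measured 0.22, -0.83 and -0.06 with the empty vector and 1.66, 1.28 and 1.63 with the tRNA, without overlap (3.35-fold, log2 difference 1.75 ± 0.46, adjusted p = 0.0486). GAC1 measured -5.31, -6.38 and -5.14 with the empty vector and -3.54, -4.27 and -3.35 with the tRNA, also without overlap, and missed the threshold (1.89 ± 0.51, adjusted p = 0.0535). Of all genes, 11.2% were higher without overlap between these groups. The other 7 differences lay between 0.16 for GSY1 and 0.75 for GLC3. The GPH1 call was lost without the second or the third empty-vector array or without any 1 of the tRNA arrays (log2 difference 1.44 to 1.87), and under 5 of 10 other settings (adjusted p 0.054 to 0.102), slide as a block among them (adjusted p = 0.0571). The GAC1 difference was 0.514 under normexp (adjusted p = 0.548). Without the second tRNA array GAC1 was called instead (2.17, adjusted p = 0.043).

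In B3, limma called 0, with 1 (GPH1) at an unadjusted p under 0.05 and 0 by the methods' t-test, against 0.507% of all genes in either direction. GPH1 was again the widest difference, from -0.17 and -0.40 with the empty vector to 1.17, 0.60 and 1.15 with the tRNA (1.26 ± 0.52, adjusted p = 0.562), and 7 of the others lay between -0.60 for GSY1 and 0.43 for PGM2. For GAC1, not well above background on any B3 array with the tRNA, no direction can be given. In H9, 1 gene was called lower, against 0.372% of all genes. This was GSY2, at 1.83, 2.00 and 3.56 with the empty vector and 1.11, 1.05 and 1.2 with the tRNA (2.54-fold, log2 difference -1.35 ± 0.34, adjusted p = 0.0231). GLG2 passed the adjusted p at less than 2-fold (-0.78 ± 0.21, adjusted p = 0.0331). All 9 differences were negative in H9, with a median of -1.07 that became -0.488 without the third empty-vector array. No gene was called without that array, or without any 1 of the tRNA arrays, while 5 were called without the first empty-vector array and 3 without the second. The H9 tRNA arrays lay close together, with means of the 9 genes of -1.03, -1.02 and -1.0.

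**Figure D4:**
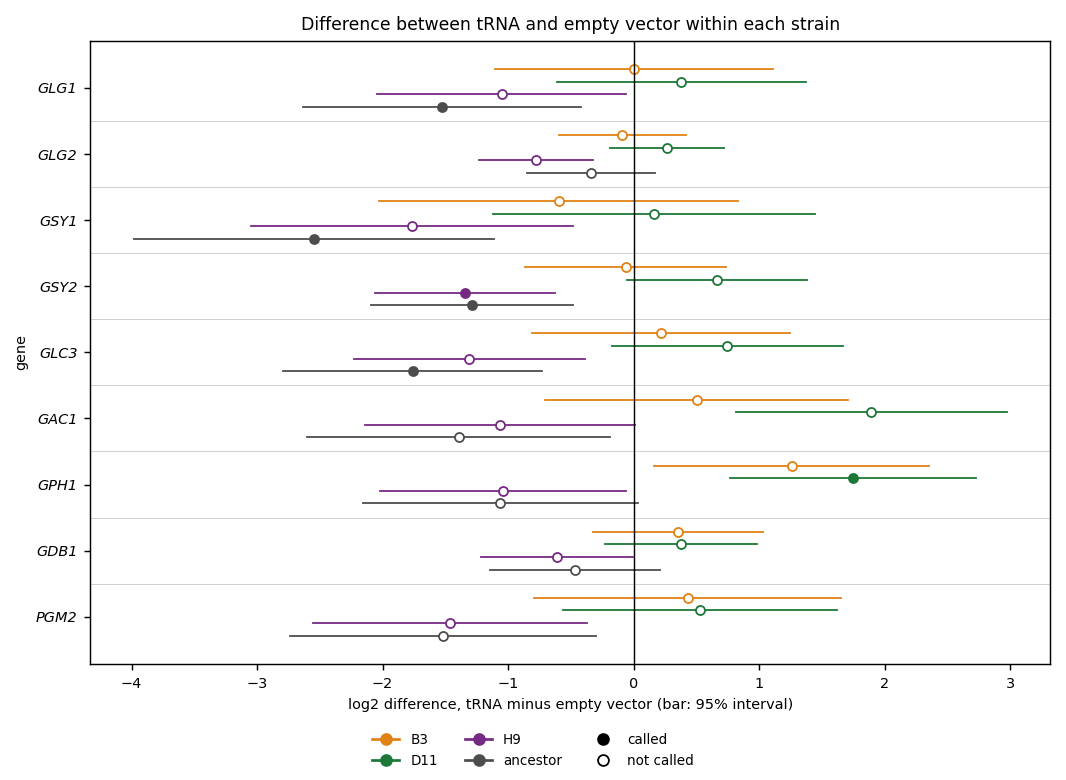
Log2 difference between the tRNA plasmid and the empty vector (x axis) for each gene (y axis) within each strain; bars are 95% intervals from limma and filled points were called. Values of the ancestor and H9 lie below 0 for all 9 genes, and those of D11 lie above 0 for all 9; the B3 point of GAC1 rests on tRNA arrays where it was not well above background.

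The difference between the responses was tested directly. In D11, the response to the tRNA, taken with its sign, lay above that of the ancestor for 4 of the 9 genes, against 3.32% of all genes called in that direction: GAC1 (3.29 ± 0.76, adjusted p = 0.0112, but 1.22 and not called under normexp, adjusted p = 0.115), GPH1 (2.81 ± 0.69, adjusted p = 0.015), GLC3 (2.51 ± 0.65, adjusted p = 0.0187) and GSY2 (1.95 ± 0.51, adjusted p = 0.0188). All 9 genes had positive responses in D11 and negative ones in the ancestor, so these values do not mean a larger response in D11. The other 5 were positive, from 0.61 for GLG2 to 2.71 for GSY1 (adjusted p = 0.0517), and the median was 2.04. Each of these values contains the low D11 levels with the empty vector, and it uses the same ancestor arrays as the comparisons above. Without the first or the second ancestor empty-vector array, 0 and 1 (GAC1) were called. In B3 the median difference was 1.74 over the 8 genes other than GAC1, which was not well above background in B3 with the tRNA, and limma called 0 of the 9, with 5 (GAC1 among them) at an unadjusted p under 0.05, against 0.338% of all genes in either direction, and the widest value was that of GPH1 (2.32 ± 0.73, adjusted p = 0.14). In H9 the median was 0.05, with 0 called and 0 at an unadjusted p under 0.05 in limma, against 0.406% of all genes in either direction. The ancestor response also contains the chromosome XII shift of 0.365 between the 2 ancestor groups. In these comparisons of responses, chromosome XII genes had mean values of -0.266 in D11, -0.363 in B3 and -0.328 in H9. The part of this shift in the values of the 9 genes was not tested.

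Other genes of glycogen metabolism were counted as a list. Of 14 further pathway genes (UGP1, PGM1, PIG1, PIG2, GIP2, GLC7, GLC8, SGA1, IGD1, PSK1, PSK2, PCL8, PCL10 and PHO85), 1 was called lower in B3 with the empty vector (1.96% of all genes), 2 lower and 1 higher in D11 (3.33% and 3.4%), 0 in H9 (0.88% in either direction), and 2 lower in the ancestor with the tRNA (1.89%). The lower genes were IGD1, an inhibitor of the debranching enzyme, at -1.78 in B3, -1.22 in D11 and -1.17 in the ancestor with the tRNA, and UGP1, which makes the UDP-glucose used by glycogen synthase, at -1.16 in D11 and -1.28 in the ancestor with the tRNA. UGP1 was also called lower in H9 with the tRNA than with the empty vector (-1.01, adjusted p = 0.0125), against 0.372% of all genes. The mean of the 14 genes was -0.25, -0.25 and 0.23 on the H9 arrays with the empty vector. With empty vectors, 2 were called lower in B3 than in H9 (2.74%) and 1 in B3 than in D11 (2.15% in either direction). In the D11 response minus that of the ancestor, 2 were called higher (3.32%). The gene that rose was SGA1, a glucoamylase known from sporulation, at 1.44 in D11 with the empty vector. It was at 1.18 in D11 against the ancestor with the tRNA on both sides, where 0.88% of all genes were called higher. The minor phosphoglucomutase PGM1, unlike PGM2, was not called in B3 (-0.27 ± 0.16, adjusted p = 0.277).

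The 8 stress reporters were counted as well: 4 were called lower in B3 with the empty vector (1.96% of all genes), 5 in D11 (3.33%), 0 in H9 (0.88% in either direction) and 1 in the ancestor with the tRNA (1.89%). HSP12, a small heat shock protein gene of the general stress response, had the widest value in B3 (-3.07, adjusted p = 0.00424), and TSL1, a subunit of the trehalose synthase complex, in D11 (-2.90, adjusted p = 0.0204). TSL1 measured 0.60 and 0.51 in the ancestor and -1.54, -1.76 and -3.74 in D11, the lowest on the dimmest array of the series. The mean of the 8 reporters was -1.12 on both B3 arrays and -0.46, -1.24 and -1.02 on the D11 arrays with the empty vector. Their part in the values of the glycogen genes was not tested.

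The 9 genes lie on 8 chromosomes (VI, XII, V, XVI, XI, X, XV and XIII), with GPH1 and GDB1 both on XVI. The median log2 difference of the 20 tested genes nearest to each, 10 on each side in the R64 gene order, lay between -0.25 and 0.27 in B3, between -0.29 and 0.36 in D11 and between -0.14 and -0.01 in H9 with the empty vector, and between -0.24 and 0.36 in the ancestor with the tRNA. The highest of these belonged to GSY2 in B3, D11 and the ancestor with the tRNA.

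The genes outside the 9 whose levels followed their mean most closely over the 22 arrays were HXK1 (r = 0.965), FMP33 (r = 0.958), VPS73 (r = 0.954), ATG42 (r = 0.953) and TPS3 (r = 0.952). HXK1 encodes a hexokinase, TPS3 a regulatory subunit of the trehalose synthase complex and ATG42 a vacuolar carboxypeptidase. Among the 9 genes, the closest pair was GLC3 and PGM2 (r = 0.936), and the least alike was GSY2 and GLG2 (r = 0.499). The third H9 array, high for all 9 genes, enters each of these values.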

How the data were processed

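The 9 genes and the other lists were chosen with earlier results of these data known. Groups follow the labels. The authors deposited spot intensities from Agilent Feature Extraction 10.7.3.1 (1 colour, Cy3), whose processed signal is background-subtracted, and a series table of log2 values, used as an alternative only. Per array, the median log2 processed signal was subtracted, as the study's methods state, without outlier spots (none belonged to the 9 genes), and spots were averaged per probe, then probes per gene. Probes were kept where some group had them well above background on all its arrays. Where a gene was above background on no array of a group, the bound compares the brighter mean with the lowest signal well above background. limma 3.58.1 in R 4.3.3 (lmFit, eBayes) was fitted with 8 group coefficients, 14 residual and 2.24 prior degrees of freedom. Names came from RefSeq R64 (5720 of 6225 genes matched); the array's genome build is older, so no positions are given. All 9 genes were named in each comparison where they were called. A further gene list is not reported here. The fit was tested on simulated data. The number of arrays limits the precision. Alternatives covered scaling, background, filter, threshold, test, slide and each array.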

Additional observations from a re-analysis of the deposited data

Results flagged for a closer look

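Differences between lineages that passed the test of the difference itself are listed here as log2 values, all from limma with Benjamini-Hochberg adjustment over 5912 genes. The response of D11 to the tRNA, positive for these genes, lay above that of the ancestor, which was negative. The signed differences were 3.29 for GAC1, 2.81 for GPH1, 2.51 for GLC3 and 1.95 for GSY2. Chromosome XII genes differed by a mean of 0.365 between the ancestor groups that enter these values. The part of this shift was not tested. Between B3 and H9, both with the empty vector, the differences were -2.53 for GAC1, -2.37 for GPH1, -1.83 for PGM2, -1.81 for GLC3, -1.12 for GLG2 and -1.10 for GDB1. Between D11 and H9, they were -2.31 for GPH1, -2.07 for GLC3, -2.02 for GAC1, -1.71 for PGM2, -1.42 for GLG1 and -1.05 for GSY2. The third H9 array with the empty vector, highest of all arrays for all 9 genes, enters each value against H9. Its GLG2 spots differed by 2.29 on the log2 scale, and the GLG1 spots of the third D11 array by 2.73. In B3 against H9, the call was lost under 3 of 10 other settings for GLG2 and 4 for GDB1. In D11 against H9, it was lost under 3 for GLG1 and 3 for GSY2. The other calls against H9 were lost under 1 or 2. Under normexp background correction, the GAC1 values were 1.22, -0.935 and -0.184 in these 3 comparisons, and none was called. Single arrays of a group were not tested as outliers.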

How the results depend on the processing

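The counts of glycogen genes called in the 16 comparisons were recomputed under other settings. With 75th percentile scaling, D11 with the tRNA against the empty vector had 2 calls; with the series table it had 2; with centring on genes outside the rearranged chromosomes 0; and without a filter on dim probes 0. Under normexp background correction, added after the data were seen because the planned mean signal was not among the columns used here, B3 against the ancestor with the empty vector had 3 and D11 with the tRNA against the empty vector 0. With only the compared groups in the fit, the counts were 1 for the tRNA in B3, 0 in D11, 0 in H9, 4 and 7 for the responses of B3 and D11 minus that of the ancestor, and 0 for B3 and 0 for D11 against H9. Without the third slide they were 5 for H9 against the ancestor with the empty vector, 2 for the tRNA in D11 and 0 in H9, 1 and 7 for the responses of B3 and D11, and 3 for B3 and 3 for D11 against H9. The methods' t-test, at its own threshold, gave 0 for the tRNA in the ancestor, 0 for the tRNA in H9, and 0 for B3 and 0 for D11 against H9. After Benjamini-Hochberg adjustment it gave 2 for D11 against the ancestor with the empty vector and 0 for the tRNA in the ancestor, D11 and H9 and for B3 and D11 against H9. Without a minimum fold, H9 had 2 calls for the tRNA. The causes were not tested.

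With the replicate number, which equals the slide, as a block, there were 0 calls for the tRNA in D11 and 2 in H9, and no other count of calls moved by over 1.5 times. Deviations from group means had a median correlation of 0.0237 over 71 pairs of arrays sharing a number (-0.561 to 0.599, 23 over 0.1). Over 140 pairs of different numbers it was -0.00526 (-0.619 to 0.637, 30 over 0.1). These values do not settle whether the numbers pair the samples, and the main fit did not pair them.

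Leaving out 1 array at a time, where an arm with a lone array is assumed to vary like the other groups, gave 0 to 1 called genes for B3, 2 to 7 for D11 and 0 to 4 for H9 against the empty-vector ancestor. The range was 0 to 5 for the tRNA in the ancestor, 0 to 1 in D11 and 0 to 5 in H9, 0 to 5 for the response of D11 minus that of the ancestor, 2 to 7 for B3 against H9 and 3 to 9 for D11 against H9. No other comparison changed its count of 0.

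Single-gene values were followed in part of the comparisons only, and not under the t-test and minimum-fold alternatives. Comparisons left out were those between strains that all carried the tRNA, and the tRNA in B3. The responses of B3 and H9 minus that of the ancestor, and B3 against D11, were left out too. Of the values followed, 1104 kept direction and side of the threshold, 121 lost and 48 gained a call, and 14 changed direction. Of the last, 0 were in B3 or D11 against the empty-vector ancestor. In H9 against the ancestor, GDB1 (-0.04 as reported) was 0.0172 after quantile normalization, and leaving out 1 array gave GDB1 -0.50 to 0.225, PGM2 -1.26 to 0.222, GLG1 -1.15 to 0.136, GAC1 -0.77 to 0.197 and GPH1 -1.16 to 0.0271, the low ends being those without the third H9 array. GSY2 in B3 against H9 was 0.212 without the third slide, and -0.65 to 0.212 without 1 array. For the tRNA in D11, GLG1 was -0.0797 without the third slide, and GSY1 was -0.0797 to 0.636 without 1 array. Leaving out values whose spots differed by over 1 on the log2 scale, an alternative also added after the data were seen, changed no count by over 1.5 times.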
